A study of Mus musculus with 6 samples.

Results

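The interferon receptor and JAK-STAT genes described here are Ifnar1, Ifnar2, Ifngr1, Ifngr2, Jak1, Jak2, Tyk2, Stat2 and Stat3. They were chosen by name: every probe whose platform symbol, or current symbol through its Entrez identifier, was one of these names was taken. This gave 22 probes for the 9 genes, out of 19057 genes named on the array. Total RNA was measured on single-colour Illumina arrays, 3 with CCR9+ plasmacytoid dendritic cells (pDCs) and 3 with pDC-like dendritic cell precursors that lack CCR9, a chemokine receptor. Both populations were sorted by flow cytometry from bone marrow of female C57BL/6 mice aged 7 weeks, and the design text speaks of 3 separate isolations of each. No transgene, knockout or treatment is named for either group. The sources used here do not say whether animals were pooled, or which surface markers besides CCR9 were gated.

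Type I interferons bind a receptor made of the IFNAR1 and IFNAR2 chains, which carry the kinases TYK2 and JAK1. Interferon gamma binds a receptor made of IFNGR1 and IFNGR2, which carry JAK1 and JAK2. The kinases phosphorylate STAT proteins: complexes that hold STAT2 and IRF9 bind interferon-stimulated response elements (ISREs), while STAT dimers bind gamma-activated sites (GAS). STAT3 serves the receptors of interleukins 6 and 10 and acts downstream of FLT3 in dendritic cell development. Plasmacytoid dendritic cells are known as strong producers of type I interferon and also respond to it.

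The promoters of the 4 genes that passed the test below are shown because both elements can be looked for in them. Each window runs from 250 bases before to 50 bases after the annotated start, 5′ to 3′, from the RefSeq promoter table of GRCm38.p6. Tyk2 lies on the minus strand, and the others lie on the plus strand. Capitals mark a match to the ISRE core, searched on both strands as TTTC followed, after any 2 bases, by TTTC; no match to the GAS letters TTCNNNGAA was in these 4 windows.
Stat2 chr10:128270248-128270547: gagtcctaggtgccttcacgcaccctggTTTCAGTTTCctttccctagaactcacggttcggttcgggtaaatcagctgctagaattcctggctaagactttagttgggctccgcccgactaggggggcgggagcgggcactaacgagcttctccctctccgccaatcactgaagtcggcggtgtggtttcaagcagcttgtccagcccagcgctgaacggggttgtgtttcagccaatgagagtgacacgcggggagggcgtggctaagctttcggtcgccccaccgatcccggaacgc
Ifngr1 chr10:19591699-19591998: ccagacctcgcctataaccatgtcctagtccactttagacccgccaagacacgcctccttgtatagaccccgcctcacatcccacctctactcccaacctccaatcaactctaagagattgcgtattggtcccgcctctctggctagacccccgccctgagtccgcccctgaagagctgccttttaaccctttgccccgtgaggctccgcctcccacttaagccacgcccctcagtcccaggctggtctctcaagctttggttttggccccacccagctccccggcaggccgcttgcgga
Tyk2 chr9:21131226-21131525: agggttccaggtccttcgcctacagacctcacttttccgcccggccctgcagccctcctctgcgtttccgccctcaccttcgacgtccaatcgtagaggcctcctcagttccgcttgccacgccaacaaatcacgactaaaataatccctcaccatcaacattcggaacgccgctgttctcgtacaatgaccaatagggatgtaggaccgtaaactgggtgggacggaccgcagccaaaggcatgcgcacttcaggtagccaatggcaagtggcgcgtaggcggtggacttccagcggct
Jak2 chr19:29251553-29251852: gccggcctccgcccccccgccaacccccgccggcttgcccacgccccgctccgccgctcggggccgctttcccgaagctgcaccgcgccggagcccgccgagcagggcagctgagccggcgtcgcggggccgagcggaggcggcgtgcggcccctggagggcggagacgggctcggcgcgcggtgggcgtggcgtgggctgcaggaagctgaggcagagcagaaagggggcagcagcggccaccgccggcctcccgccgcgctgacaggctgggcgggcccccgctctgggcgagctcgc
All 9 genes had an entry in the table. The Stat2 window was the 1 member window with the ISRE core, TTTCAGTTTC, from base -222 to base -213 relative to the start. Of all 32851 windows in the table, 3.44% held these letters. GAS letters were in 2 member windows, TTCCTGGAA of Ifnar2 and TTCACGGAA of Ifnar1, and in 8.3% of all windows; this motif reads the same on both strands and did not overlap the ISRE core in them. These are matches of letters, not measured binding.

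Of the 9 genes, 8 had a probe bright enough to be tested, and 4 of the 8 differed between the populations. Ifngr1, Stat2 and Tyk2 were higher in CCR9+ pDCs, and Jak2 was lower there. Ifnar2, Ifngr2, Jak1 and Stat3 did not pass, and Ifnar1 gave no signal above background on any array. A gene was called at a limma adjusted p below 0.05, with adjustment over all 9561 genes tested. Over all genes, 35.8% were called, 17.6% higher and 18.2% lower in CCR9+ pDCs, against 3 higher and 1 lower of the 8. Under median scaling of the arrays, the calls over all genes changed from 1683 higher and 1737 lower to 986 higher and 2122 lower, and the median log2 difference of all genes moved from -0.02 to -0.19. The median log2 difference of the 8 tested genes was 0.20 and that of all genes -0.02. The brightest probes of all 8 were above background on all 6 arrays, so none entered the test through one population alone.

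**Figure D1:**
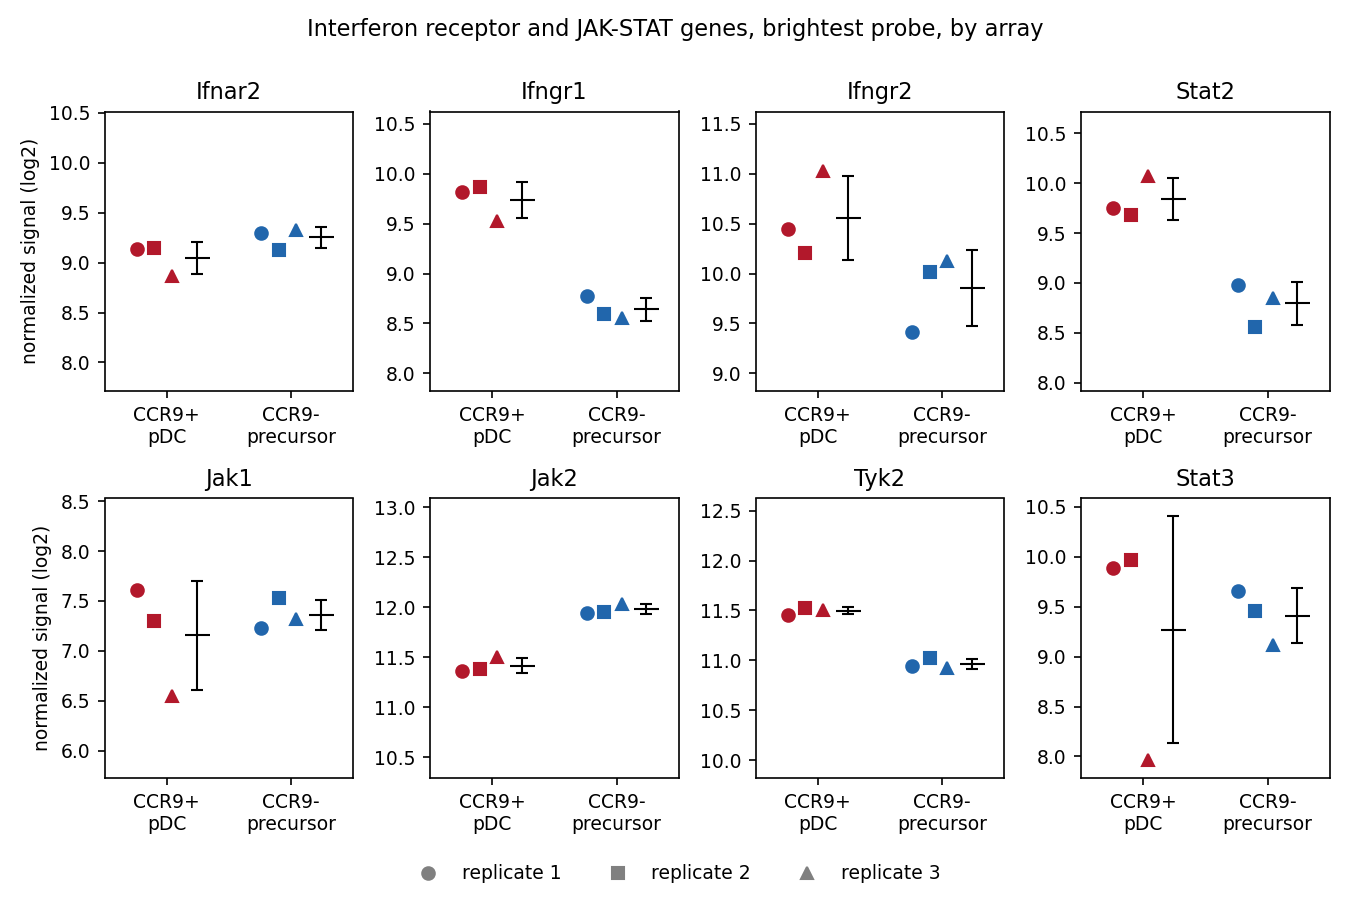
Normalized log2 signal of the brightest probe of each tested gene on every array, CCR9+ pDCs left in red and CCR9- pDC-like precursors right in blue; symbols are replicates, and bars are the mean with SD of 3 arrays. All panels span the same log2 range, and the Stat3 point at 7.96 is CCR9+ pDC replicate 3.

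Among the receptor chains, Ifngr1, the ligand-binding chain of the interferon gamma receptor, differed most. Its probe (ILMN_2651575) had log2 signals of 9.81, 9.87 and 9.53 on the CCR9+ pDC arrays, against 8.77, 8.60 and 8.56 on the precursor arrays. The groups did not overlap for this gene and 4 of the other 7, against 50.9% of all genes tested. CCR9+ pDCs averaged 9.74 ± 0.18 and precursors 8.64 ± 0.11 (log2, SD, n = 3 each), a 2.13-fold difference. The log2 fold change was 1.09 with a 95% interval of 0.79 to 1.39 (limma adjusted p = 0.000753). In RNA from a sorted population, fewer cells of a type and less RNA per cell cannot be told apart.

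Ifngr2 encodes the other chain of that receptor, which carries JAK2. Its brightest probe (ILMN_2784272) had log2 signals of 10.44, 10.21 and 11.02 in CCR9+ pDCs, against 9.42, 10.01 and 10.13 in precursors. The groups did not overlap, but the arrays within each were widely spread (SD of log2 0.42 in CCR9+ pDCs and 0.38 in precursors). The log2 fold change of 0.70 did not pass the test (95% interval 0.06 to 1.34, limma adjusted p = 0.0848). The 2 dimmer Ifngr2 probes had log2 fold changes of the opposite sign, -0.43 and -0.37, with limma adjusted p-values of 0.350 and 0.387. With the mean of the 3 probes the gene's value was -0.03, so neither a difference nor its direction is settled for Ifngr2.

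For the type I receptor, only Ifnar2 could be measured. Its brightest probe (ILMN_2598703) had log2 signals of 9.13, 9.15 and 8.87 in CCR9+ pDCs, against 9.30, 9.13 and 9.33 in precursors. The groups overlapped, and the log2 fold change of -0.20 did not pass (95% interval -0.49 to 0.08, limma adjusted p = 0.227). The other Ifnar2 probes had values of 0.12 and -0.26, and neither passed. The single Ifnar1 probe was not well above background on any of the 6 arrays, with a lowest detection p-value of 0.765, so no fold is given. Its signal says nothing about whether the cells express Ifnar1.

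The genes of 3 of these chains lie beside one another on chromosome 16, in the order Ifnar2, Il10rb, Ifnar1 and Ifngr2. Il10rb, a chain shared by the interleukin 10 and type III interferon receptors, was higher in CCR9+ pDCs, with log2 signals of 9.43, 9.26 and 9.54 against 8.95, 8.82 and 8.72 in precursors. This was a 1.49-fold difference (log2 fold change 0.58, limma adjusted p = 0.00834). Under median scaling it was 0.33 and no longer passed (adjusted p = 0.160).

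Of the Janus kinases, Tyk2 was higher and Jak2 lower in CCR9+ pDCs. TYK2 is the kinase bound to IFNAR1. The brightest Tyk2 probe (ILMN_2848018) had log2 signals of 11.46, 11.53 and 11.51 in CCR9+ pDCs, against 10.94, 11.02 and 10.92 in precursors. The spread within each group was small, 0.04 in CCR9+ pDCs and 0.05 in precursors (SD of log2, n = 3 each), and the groups did not overlap. The log2 fold change was 0.53, a 1.45-fold difference (95% interval 0.33 to 0.74, limma adjusted p = 0.00339). The 2 dimmer Tyk2 probes had the same direction, 0.34 and 0.16, and did not pass (limma adjusted p = 0.197 and 0.384). Under median scaling the Tyk2 value fell to 0.30 and the call was lost (adjusted p = 0.157).

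JAK2 is the kinase carried by IFNGR2 and by receptors such as those for GM-CSF and interleukin 3. The brightest Jak2 probe (ILMN_1245579) had log2 signals of 11.37, 11.38 and 11.50 in CCR9+ pDCs, against 11.94, 11.96 and 12.04 in precursors. Each CCR9+ pDC array was below each precursor array, and the log2 fold change was -0.56, a 1.48-fold difference (95% interval -0.78 to -0.35, limma adjusted p = 0.00330). A probe annotated to another Jak2 transcript (ILMN_3115162) had signals of 8.95, 9.18 and 9.29 in CCR9+ pDCs, against 9.79, 9.86 and 9.76 in precursors. Its log2 fold change was -0.67 in the fit of every kept probe (limma adjusted p = 0.00609). Of the 14282 probes in that fit, 31% were called. The remaining 2 Jak2 probes were not well above background on any array.

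JAK1 serves both interferon receptors. The brightest Jak1 probe (ILMN_2701093) had log2 signals of 7.61, 7.30 and 6.55 in CCR9+ pDCs, against 7.23, 7.53 and 7.32 in precursors. The lowest value of all was on CCR9+ pDC replicate 3, and the groups overlapped. The log2 fold change of -0.20 did not pass (95% interval -0.85 to 0.44, limma adjusted p = 0.591), and without that array it was 0.10 (adjusted p = 0.628). A second, dimmer Jak1 probe was above background on 2 arrays of each group and had a value of 0.15 (limma adjusted p = 0.778). The remaining Jak1 probe was not well above background on any array.

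**Figure D2:**
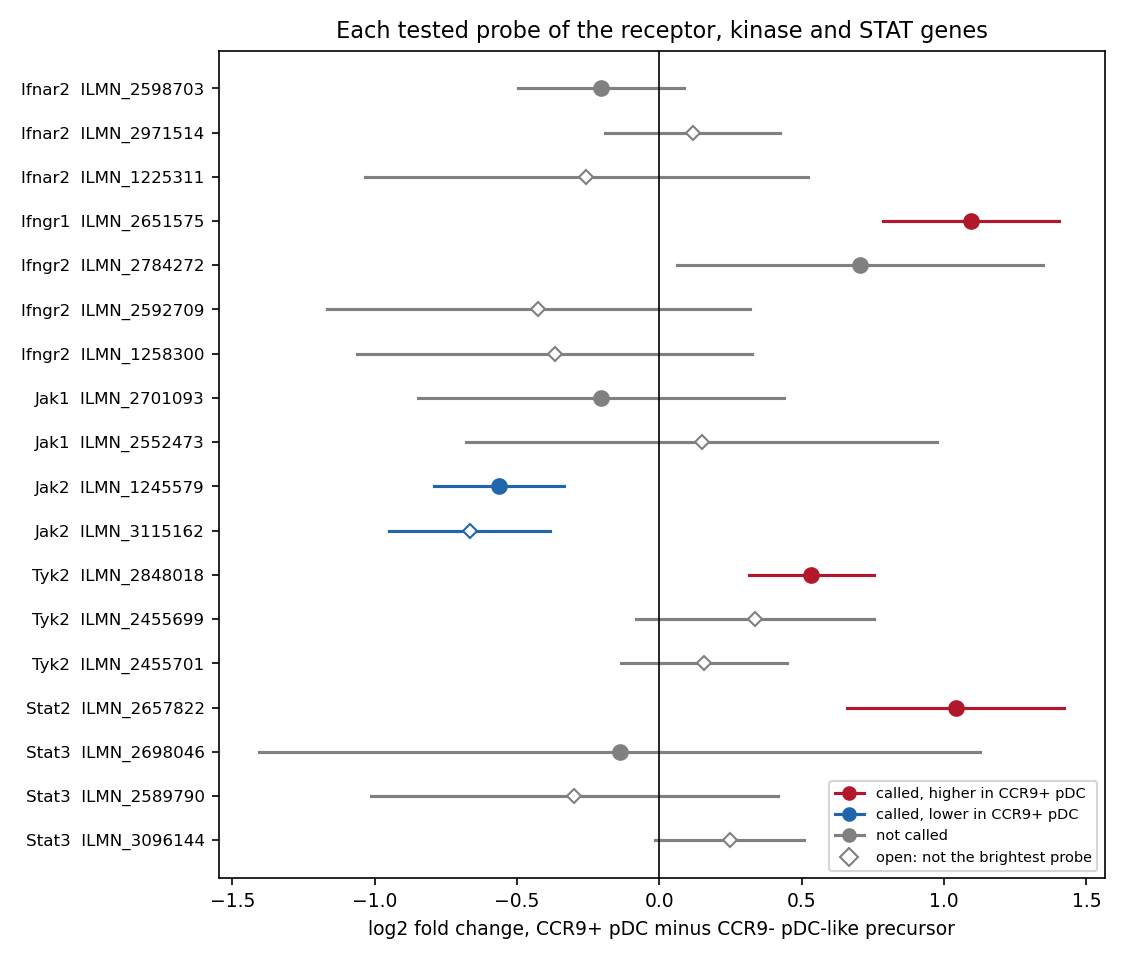
Log2 fold change with its 95% interval for each of the 18 tested probes, from the fit of every kept probe, CCR9+ pDCs minus CCR9- pDC-like precursors; filled circles are the brightest probe of a gene and open diamonds the others. Both Jak2 probes lie left of 0, all 3 Tyk2 probes lie right of it, and the probes of Ifnar2, Ifngr2, Jak1 and Stat3 fall on both sides.

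Stat2, which encodes the STAT that joins IRF9 in an interferon-activated complex, was higher in CCR9+ pDCs. Its probe (ILMN_2657822) had log2 signals of 9.75, 9.68 and 10.07 there, against 8.98, 8.56 and 8.85 in precursors. CCR9+ pDCs averaged 9.84 ± 0.21 and precursors 8.80 ± 0.21 (log2, SD, n = 3 each), and the groups did not overlap. The log2 fold change was 1.04, a 2.06-fold difference (95% interval 0.67 to 1.42, limma adjusted p = 0.00257). Stat2 is the member whose promoter window held the ISRE core.

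Stat3 gave a result that turned on 1 array. Its brightest probe (ILMN_2698046) had log2 signals of 9.89, 9.96 and 7.96 in CCR9+ pDCs, against 9.65, 9.46 and 9.12 in precursors. CCR9+ pDC replicate 3 was 1.93 log2 units below the other arrays of its group, a gap reached by 36 of the 9561 genes (0.377%). The log2 fold change over all arrays was -0.14 (95% interval -1.41 to 1.13, limma adjusted p = 0.859). Without that array it was 0.51, and it still did not pass (adjusted p = 0.0567).

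The 3 Stat3 probes did not behave alike on that array. A second probe annotated to the same transcript (ILMN_2589790) had 8.96, 8.84 and 7.86 in CCR9+ pDCs, against 9.05, 8.88 and 8.63 in precursors, so replicate 3 was again the lowest. The probe annotated to another Stat3 transcript (ILMN_3096144) had 7.20, 7.17 and 7.42 in CCR9+ pDCs, against 6.99, 7.09 and 6.97 in precursors. On this probe replicate 3 was the highest array, the groups did not overlap, and the log2 fold change was 0.25 without passing (limma adjusted p = 0.137). CCR9+ pDC replicate 3 also had the fewest probes above background, 15254 against 16477 to 16905 on the other arrays; the part of array quality in the Stat3 and Jak1 values was not tested.

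**Figure D3:**
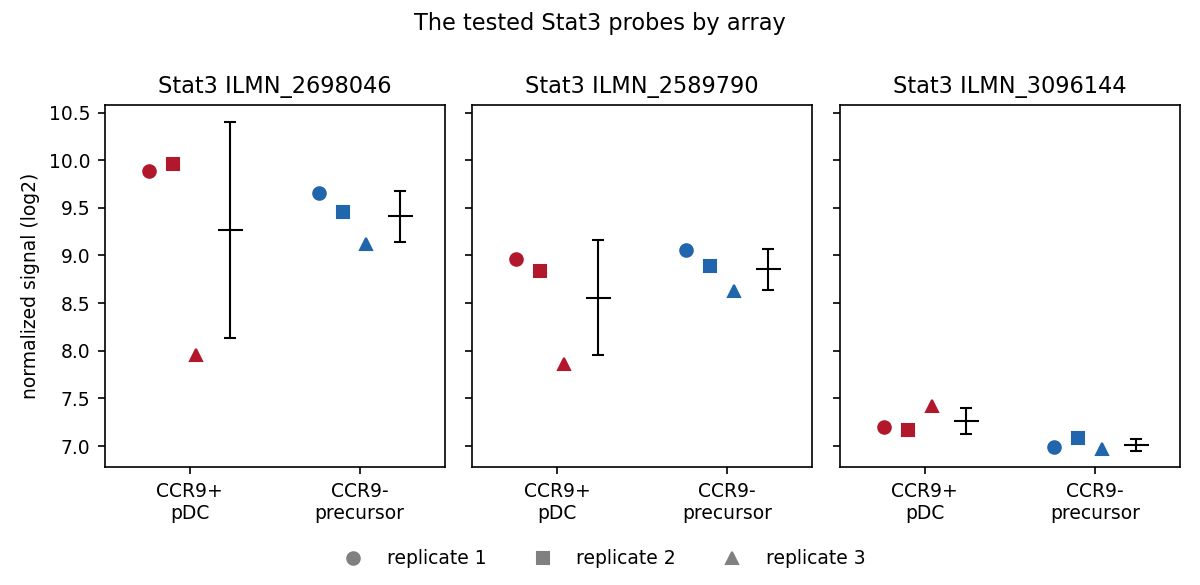
Normalized log2 signal of the 3 tested Stat3 probes on every array, CCR9+ pDCs left and CCR9- pDC-like precursors right; symbols are replicates and bars the mean with SD of 3 arrays. CCR9+ pDC replicate 3 (triangle) is at 7.96 and 7.86 on ILMN_2698046 and ILMN_2589790, below the other arrays, and at 7.42 on ILMN_3096144, above them.

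The genes with the array profile nearest to that of Ifngr1, the called member with the largest change, were P2ry13, Mag and Fam234a. P2ry13 encodes an ADP receptor, and Mag encodes myelin-associated glycoprotein. Their root mean square differences from Ifngr1 over the 6 arrays, after centring each profile, were 0.057, 0.069 and 0.071 log2 units. The Mag difference, 1.07 (log2), was 0.38 when background was not corrected and 0.39 in the authors' processed values. Like Ifngr1, P2ry13 was lowest in its group on CCR9+ pDC replicate 3, with log2 signals of 12.39, 12.30 and 11.94, against 11.21, 11.12 and 11.07 in precursors.

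The other core genes of the pathway moved both ways. Of 9 listed, 7 were tested, 2 were higher and 2 lower in CCR9+ pDCs, against 17.6% and 18.2% of all genes. Their median log2 fold change was 0.30. Ifnlr1, the type III interferon receptor chain that pairs with IL10RB, rose 2.24-fold, with log2 signals of 7.82, 7.55 and 7.88 in CCR9+ pDCs, against 6.63, 6.28 and 6.85 in precursors (limma adjusted p = 0.00246). Stat5a, a STAT of cytokine receptors such as that for GM-CSF, fell 2.17-fold, with 7.54, 7.87 and 7.78 in CCR9+ pDCs, against 9.07, 8.64 and 8.84 in precursors (adjusted p = 0.00142). Stat4, which acts in interleukin 12 signalling, fell by 0.55 on the log2 scale (adjusted p = 0.0320). This call was lost without CCR9+ pDC replicate 2 (adjusted p = 0.0513) and without precursor replicate 1, 2 or 3 (0.0934, 0.0660 and 0.10).

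Irf9, the DNA-binding partner of STAT2, did not pass, unlike Stat2. Its log2 signals were 10.60, 10.68 and 10.57 in CCR9+ pDCs, against 10.83, 10.70 and 10.67 in precursors (log2 fold change -0.12, limma adjusted p = 0.371). Whether the Stat2 and Irf9 differences themselves differ was not tested. Jak3, the kinase of the common gamma chain, had a value of 0.30 (adjusted p = 0.0997), and Stat6, which acts in interleukin 4 signalling, 0.31 (adjusted p = 0.0819). Stat6 passed without precursor replicate 2 (0.0468).

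Among 16 tested chains of other JAK-coupled cytokine receptors, 8 were higher and 2 lower in CCR9+ pDCs (median log2 fold change 0.58). Over all genes these shares were 17.6% and 18.2%. Il10rb is also counted among the other core genes, Csf3r among the granulocyte markers below and Il3ra among the pDC markers below. Il27ra, the interleukin 27 receptor chain, rose 2.97-fold (limma adjusted p = 0.000131), and Csf3r, the G-CSF receptor, rose 2.23-fold (0.00301). The Il15ra probe that was tested was above background on no precursor array and entered through the CCR9+ pDC arrays alone. Another probe of this gene was above background on a precursor array. The tested probe's signal in CCR9+ pDCs was at least 1.36-fold higher (0.000893), and 1.26-fold higher without background correction. Il6st, which encodes the signalling chain gp130 of the interleukin 6 family, fell 2.66-fold: its log2 signals were 6.21, 6.06 and 6.62 in CCR9+ pDCs, against 7.73, 7.65 and 7.75 in precursors (0.000622). Without background correction the Il6st fold was 1.63, and with the authors' processed values 1.61. Il3ra, the interleukin 3 receptor alpha chain, was at -0.82 (adjusted p = 0.0284), a call that did not hold without precursor replicate 1, 2 or 3 (0.0673, 0.0974 and 0.0594). Under median scaling 3 of these chains, not 8, were called higher.

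Of 15 negative regulators of the pathway tested, 4 were higher, 1 was lower and 10 did not pass, with a median log2 fold change of 0.21; over all genes 35.8% were called. Socs3, an inhibitor of JAK kinases that is itself induced by STAT3, rose 4.85-fold, with log2 signals of 8.88, 9.11 and 9.14 in CCR9+ pDCs, against 6.54, 6.54 and 7.21 in precursors (limma adjusted p = 0.000250). Its fold was 2.76 when background was not corrected and 2.80 in the authors' processed values. Socs5, another member of that family, rose 1.76-fold (0.00221). Ptprc, which encodes the phosphatase CD45, rose by 0.68 on the log2 scale (0.00711). Usp18, which binds IFNAR2 and restrains type I signalling, rose by 0.68 (0.0196). Pias1, an inhibitor of activated STATs, fell by 0.41 (0.0103). Under median scaling 2 of these genes were called higher and 2 lower, and the median was -0.03; Ptprc and Usp18 no longer passed (0.0813 and 0.162). The Usp18 call was also lost with the mean of its probes (0.257), without CCR9+ pDC replicate 1 or 2 (0.0581 and 0.0550) and without precursor replicate 2 (0.0531).

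Targets of the interferon receptors were called higher in CCR9+ pDCs more often than lower. Of 30 type I interferon targets listed, 21 were tested. Among these, 11 were higher, 1 was lower and 9 did not pass (median log2 fold change 0.61). Over all genes, 17.6% were called higher and 18.2% lower. Irf7 and Bst2 of this list are also counted among the pDC markers below. Ifit3 rose 17.0-fold, with log2 signals of 11.37, 11.13 and 11.19 in CCR9+ pDCs, against 7.42, 7.00 and 7.00 in precursors (limma adjusted p = 1.22e-05). Its fold was 9.40 when background was not corrected and 9.91 in the authors' processed values. The synthetase-family genes Oasl2 and Oas2 rose 5.10- and 4.71-fold, Ifit2 rose 3.46-fold, and Ifitm3, which blocks viral entry, rose 3.21-fold; for Oas2 the same 2 alternatives gave 2.75- and 2.78-fold. Nucleotide kinase gene Cmpk2 was the listed gene called lower, at -0.56 (adjusted p = 0.00700).

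Of 19 type II interferon targets listed, 13 were tested and 4 of these did not pass. The other 9 were higher and none was lower (median log2 fold change 0.79), against 17.6% and 18.2% of all genes. The chemokine genes Cxcl9 and Cxcl10 and the Fc receptor gene Fcgr1 were not above background on any precursor array. These 3 genes entered the test through the CCR9+ pDC arrays alone, so a call of lower was hardly open to them. The count of 9 higher includes them and is descriptive, not a test. They were at least 13.2-, 3.17- and 6.27-fold higher in CCR9+ pDCs (limma adjusted p = 1.28e-05, 0.000181 and 1.65e-05). The list's median was the same with them at these bounds. Gbp2, a guanylate-binding protein gene, rose 8.50-fold, and Ciita, the activator of MHC class II genes, rose 7.56-fold. Without background correction the measured folds were 4.50 for Cxcl9, 2.13 for Cxcl10, 2.65 for Fcgr1, 4.37 for Gbp2 and 4.04 for Ciita, and the bounds above hold only for corrected signals. The authors' processed values gave 4.57, 2.08, 2.66, 4.45 and 4.11 for the same genes. Cd274 rose 5.22-fold (limma adjusted p = 1.48e-05), and Irf1, a transcription factor gene induced by interferon gamma, rose 1.73-fold. Without CCR9+ pDC replicate 3, 10 type I and 11 type II targets were called higher.

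**Figure D4:**
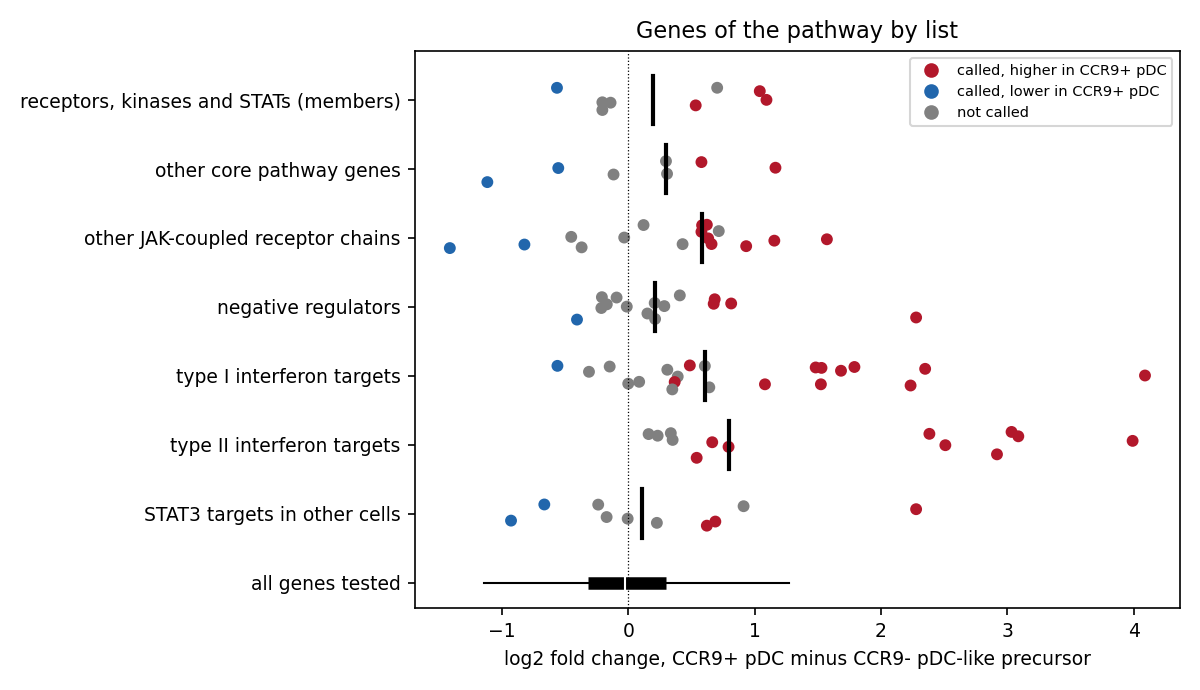
Log2 fold change (CCR9+ pDCs minus CCR9- pDC-like precursors) of each tested gene by list; black ticks are list medians, and the lowest row gives all genes tested (thick bar, middle 50%; thin line, middle 90%; white tick, median). The type I and type II target lists reach 4.09 and 3.99, while the 8 tested of the 9 interferon receptor and JAK-STAT genes lie between -0.56 and 1.09.

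Genes known as STAT3 targets in other cells were split. Of 10 tested, 3 were higher and 2 lower, against 17.6% and 18.2% of all genes. Their median log2 fold change was 0.11. This median was 0.03 without CCR9+ pDC replicate 1 or precursor replicate 2, 0.21 without CCR9+ pDC replicate 3 and 0.23 without precursor replicate 3. Besides Socs3, Hif1a (0.69, limma adjusted p = 0.0392) and Bcl6 (0.62, 0.0108) were higher, while the growth factor gene Vegfa (-0.93, 0.0104) and the transcription factor gene Cebpd (-0.66, 0.00546) were lower. The Hif1a call was lost under median scaling (0.0733), with no filter on dim probes (0.0573), without CCR9+ pDC replicate 1 or 3 (0.0784 and 0.0562) and with precursor replicate 1, 2 or 3 left out (0.0990, 0.127 and 0.0549). That of Bcl6 was lost under median scaling (0.244). Of 19 interferon genes listed, 3 were tested (Ifna1, Ifna6 and Ifnab), with values between -0.18 and 0.01, and none was called; the interferon alpha genes are near-identical copies, so which of them a probe reads is uncertain.

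Markers of other cells moved with the same comparison. The marker lists were chosen with earlier results of these data known, so their counts are descriptive and not a test. Over all genes, 17.6% were called higher and 18.2% lower. Of 18 monocyte and macrophage markers, 15 were tested and all 15 were higher in CCR9+ pDCs, where their summed normalized signal was 59939 to 83441, against 3948 to 4674 in precursors; the C1qa and Hmox1 probes were above background on no precursor array. All 12 granulocyte markers were also higher (summed signal 103153 to 117430 in CCR9+ pDCs and 51639 to 60709 in precursors), as were the 7 basophil and mast cell markers tested (2332 to 3981 and 553 to 914). Among the latter, the Il4 probe was above background on no precursor array, and the groups overlapped for Mcpt8. C1qa, Hmox1 and Il4 thus entered the test through the CCR9+ pDC arrays alone. The conventional dendritic cell marker Zbtb46, called lower, entered through the precursor arrays alone. Granulocyte and macrophage lineages are known to express Ifngr1, Csf3r and Fcgr1; the part of such cells in these values was not tested. The 7 cell cycle genes tested were all lower in CCR9+ pDCs (summed signal 4260 to 4884, against 22417 to 24449 in precursors). Of 16 pDC markers, 14 were tested, 6 were higher and 2 lower (summed signal 100822 to 113674, against 81274 to 85397); Tcf4, Irf8 and Siglech were above background on all 6 arrays, and Ccr9 was not tested. Listed erythroid, B cell, T and NK cell and conventional dendritic cell markers had 2, 2, 2 and 2 genes higher and 0, 1, 0 and 2 lower, of 6, 7, 4 and 7 tested. With 1 array left out, the erythroid genes called higher ran from 1 to 5, the 5 being without CCR9+ pDC replicate 3, the T and NK cell genes called higher from 1 to 3, and the pDC markers called lower from 0 to 2.

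**Figure D5:**
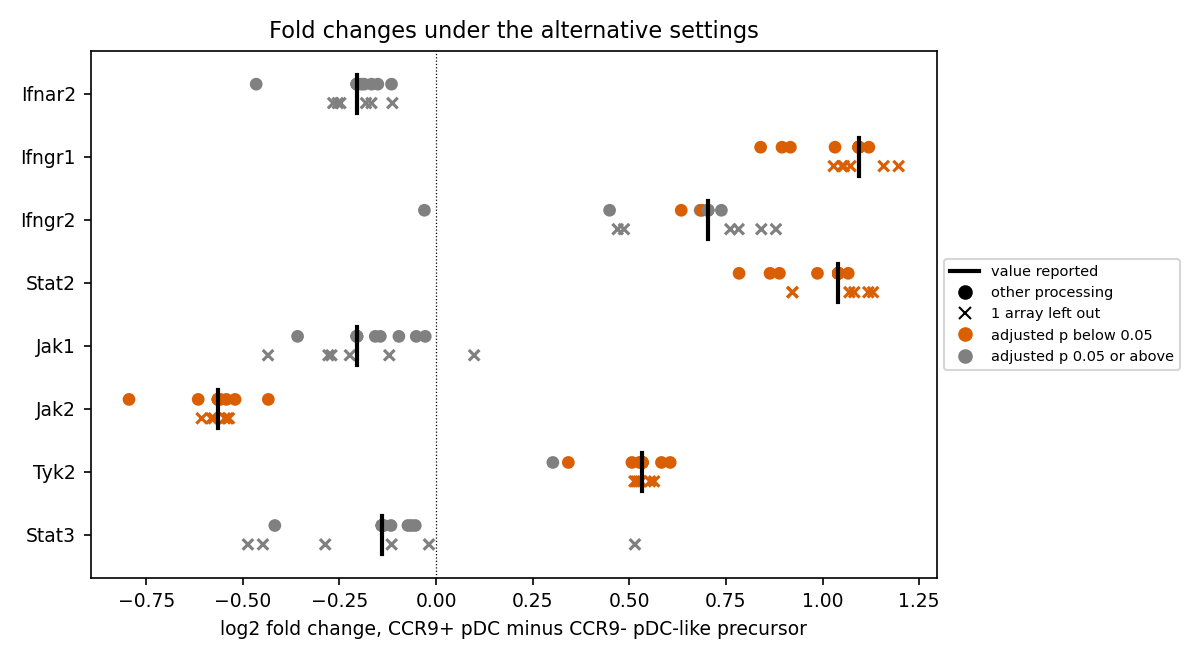
Log2 fold change (CCR9+ pDCs minus CCR9- pDC-like precursors) of each tested gene under 11 other processing settings (circles) and with each of the 6 arrays left out (crosses); black ticks are the reported values and orange marks an adjusted p below 0.05. Ifngr1, Stat2 and Jak2 were called under all 17, Tyk2 under all but median scaling, while Stat3 ran from -0.49 to 0.51.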

How the data were processed

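Total RNA of 3 CCR9+ pDC and 3 CCR9- pDC-like precursor samples was hybridised to 6 arrays. The authors deposited a non-normalized intensity and a detection p-value per probe, per the file headers, for 45281 probes; BeadStudio and lumi are named in the submitters' processing notes without versions. The authors also deposited a processed intensity table (normalization not given in the sources used here). It was taken as linear, uncentred and in the same direction as the signals, since its columns had medians of 153.3 to 153.96 and rank correlations of at least 0.9997 with their own arrays; it served as an alternative. The sources used here do not say whether its background was corrected. Its lowest value per array was 82.4 to 87.8. For the genes given with both alternatives, its folds lay close to those without background correction, so these 2 alternatives are not separate checks.

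With limma 3.58.1 in R 4.3.3 (function neqc), normexp used the detection p-values to correct background (offset 16), and arrays were quantile normalized on the log2 scale. A filter on dim probes kept 16857 with detection p-values under 0.05 on 3 or more of the 6 arrays. Named probes among them numbered 14282; of all probes, 34885 had 1 symbol, 18 several and 10378 none, and 34807 matched RefSeq genes (GRCm38.p6) by Entrez identifier. Each of the 9561 genes was represented by its brightest kept probe. CCR9+ pDC minus precursor differences were fitted with limma's lmFit and eBayes (4 residual and 2.63 prior degrees of freedom) and adjusted by Benjamini-Hochberg over all genes; other probes come from a fit of every kept named probe. Bounds ("at least") set the brighter group's mean against, per array, the probe's own signal or, where higher, the lowest signal above background. The fit was tested on simulated data.

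The median signal was 135.9 to 163.6 per array, and 3 arrays per group limit the precision. The members and lists were chosen with earlier results of these data known. Named by rule were all members, all tested core genes, up to 5 called genes of each other pathway list, and the 3 profiles nearest to the called member with the largest change. Irf1, Cd274, Cmpk2, the interferon genes and the genes named only as markers were given outside this rule. Alternatives covered background, normalization, filter, choice of probe, variance model, replicate numbers and each array left out.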

Additional observations from a re-analysis of the deposited data

How the results depend on the processing

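Across the 8 tested genes, the calls of Ifngr1, Stat2 and Jak2 held in direction and significance under all 11 processing alternatives and with each of the 6 arrays left out. Tyk2 was called under all of these except median scaling (log2 fold change 0.30, limma adjusted p = 0.157), a setting that also lowered the number of genes called higher in CCR9+ pDCs to 986, against 1683. The stricter filter, no filter, the variance model, the replicate block and the fit of every kept probe left the estimates of these called genes unchanged. Those settings could change only their significance. Ifngr1 and Stat2 had 1 probe each, so the mean of probes could not change their estimates either. Ifngr2 passed without background correction (0.63, adjusted p = 0.0414) and with the authors' processed values (0.69, adjusted p = 0.0399), and its sign turned with the mean of its 3 kept probes (-0.0301, adjusted p = 0.891); its 2 dimmer probes have the opposite sign. With 1 array left out, Jak1 ran from -0.43 to 0.10 and Stat3 from -0.49 to 0.51, the upper ends being the values without CCR9+ pDC replicate 3. Ifnar2 stayed between -0.47 and -0.11 and was never called. Over all genes, leaving out 1 array gave 1239 to 1670 higher and 1203 to 1881 lower calls.

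The median of other core genes was 0.114 under median scaling, 0.148 where dim probes were kept, 0.165 where background was not corrected and 0.189 in the authors' processed values. The median of negative regulators turned to -0.0277 under median scaling and that of interferon genes to 0.0187 with no filter on dim probes. The median of type II targets was 1.59 at a detection p-value below 0.01, that of type I targets 0.39 under median scaling and also 0.39 with no filter, and that of other receptor chains 0.32 and 0.26 under these. That of STAT3 targets ran from 0.0194 under median scaling to 0.235 without precursor replicate 3. The single genes checked in this way outside the 9 numbered 59. They were the tested core genes, the top called genes of each other list and the 3 nearest profiles. Marker genes not named in the text were among them, and Irf1, Cd274 and Cmpk2 were not. Of the 59, 49 kept their direction and their side of the threshold under every alternative. The cause of the other changes was not tested.

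Replicate numbers are shared by the groups. Deviations of same-numbered arrays correlated at 0.350, 0.0443 and 0.242, and those of arrays with different numbers at -0.298 to 0.0628. CCR9+ pDC replicates 1 and 3 correlated best with the precursor array of their own number. CCR9+ pDC replicate 2 correlated slightly better with precursor replicate 1, at 0.0628. Whether same-numbered arrays share an isolation was not tested, and the main fit did not pair them. With a replicate block, 1684 genes were higher and 1677 lower, and the same counts of members were called, 3 higher and 1 lower. The erythroid markers called higher were 5 with the block, and also with the authors' processed values, against 2. The file headers name no slide, so a slide block was not run. Signals near background limit Ifnar1 and the dimmer probes of Ifnar2, Ifngr2 and Jak1.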

Other observations

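The 36 genes that fell on CCR9+ pDC replicate 3 at least as far as Stat3 below the other arrays of that group included Hnrnpl and Sfpq, which encode nuclear RNA-binding proteins, and the elongation factor gene Eef2. These 3 were chosen after their values were seen. Hnrnpl was 4.25 log2 units lower there, Sfpq 3.19 and Eef2 2.21. In all, 247 of 9561 genes (2.58%) were at least 1 log2 unit lower on that array than on both other CCR9+ pDC arrays. Gaps of this kind were also seen on dimmer probes of the receptor and kinase genes: 1.12 for Jak1 (ILMN_2552473) and 1.05 for Ifnar2 (ILMN_1225311), reached by 2.74% and 3.19% of all kept probes. On replicate 3 both of these probes (4.84 and 5.37) and Sfpq (4.81) were below the lowest signal above background on that array (5.64). The sizes of their gaps are therefore set partly by background. Of the 4 called genes, Ifngr1 was lowest in its group on replicate 3, by 0.28 log2 units (a gap reached by 13.5% of genes), and Stat2, Tyk2 and Jak2 were not.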
